A study of Mus musculus with 13 samples.

Results

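The skeletal muscle genes are 38 listed genes of the adult muscle fibre, followed here through 13 arrays of 4T1 mammary tumours. They were chosen by gene symbol, and every probe annotated to a listed symbol was used. The platform annotations held 37 of the 38 genes among 19259 genes in all, and Myh2 was on neither platform. On the 9 arrays of the larger platform 37 genes were annotated with 78 probes, and 27 of them passed the detection filter among 11057 genes tested. On the 4 arrays of the smaller platform 36 genes were annotated, without Neb, and 32 passed among 9714 genes.

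4T1 is a mouse mammary carcinoma line, here grown orthotopically, and total RNA of the tumours was hybridised to Illumina bead arrays. In PDGFRb-TK hosts a thymidine kinase is expressed under the Pdgfrb promoter, mainly in pericytes, and ganciclovir (GCV) kills those of its cells that divide. All hosts in every group received GCV, wild-type hosts and controls included. The 9 arrays fall into WT/IgG (3 tumours from wild-type mice treated with control IgG), TK/IgG (3 from PDGFRb-TK mice, same IgG) and TK/anti-Ang2 (3 from PDGFRb-TK mice treated with an anti-Ang2 antibody, which binds angiopoietin-2). The other 4 arrays pair a pericyte-ablated tumour with its control, once at an early and once at a late stage. The genotype field of both pair controls reads PDGFRb-TK while their descriptions read WT, so the genotype of these hosts is not settled. The field for the TK transgene reads positive in every sample, WT/IgG included, and groups were taken from titles. The labels give no host age, GCV dose or pooling. Whether replicates are separate animals is also unstated, and p-values then reflect only the spread among these samples, possibly technical.

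Muscle fibres contract through sarcomeres, in which myosin thick filaments pull on actin thin filaments when calcium binds the troponin complex. Fast and slow fibres build these parts from different genes, for instance fast Tnnc2, Tnni2 and Tnnt3 against slow Tnnc1, Tnni1 and Tnnt1 for the 3 troponin subunits. Mammary carcinoma cells do not form sarcomeres, and the mouse mammary fat pad lies between the skin and the muscle of the body wall. In whole-tumour RNA, fewer cells of a type and less RNA per cell cannot be told apart.

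The epithelial keratins Krt8 and Krt18 and the cadherin Cdh1 were detected on 9 of 9 and on 4 of 4 arrays, while the epithelial adhesion gene Epcam was not among the genes tested. Between 40.6 and 43.2% of probes were detected on each of the 9 arrays. On the early control, early ablation and late ablation arrays it was 42.6 to 48.9%. The share of the late control was not measured but set to 42.6%, because its detection column repeats its signal. The number of arrays limits the precision. One library stood apart, TK/anti-Ang2 replicate 2, whose median correlation with the other arrays was 0.931 against 0.968 to 0.977 for the rest. No 2 of the 9 arrays were duplicates, the largest correlation being 0.982.

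Because most of the muscle genes moved together across the tumours, promoters of members that define the pattern are shown. The 250 bases before the start are given 5′ to 3′ for the thin filament actin Acta1, for the fast genes with the widest spread (Atp2a1 and Tnnc2), and for the slow troponin genes Tnnt1 and Tnnc1, from RefSeq on GRCm38.p6. Capitals mark E-boxes (CANNTG, the letters bound by MyoD-type factors) and, in Acta1, a CArG box, the motif of serum response factor.
Acta1 (chr8:123894776-123895025, minus strand): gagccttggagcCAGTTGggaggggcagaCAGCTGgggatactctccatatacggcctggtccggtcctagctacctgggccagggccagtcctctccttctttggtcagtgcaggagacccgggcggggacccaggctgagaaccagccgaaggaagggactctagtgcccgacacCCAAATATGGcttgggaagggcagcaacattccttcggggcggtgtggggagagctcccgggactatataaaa
Atp2a1 (chr7:126463074-126463323, minus strand): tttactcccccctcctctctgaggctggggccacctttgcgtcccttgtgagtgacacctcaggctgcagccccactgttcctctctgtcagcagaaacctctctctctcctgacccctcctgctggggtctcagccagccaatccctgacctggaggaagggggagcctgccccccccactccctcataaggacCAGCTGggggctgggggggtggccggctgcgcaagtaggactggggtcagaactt
Tnnc2 (chr2:164779735-164779984, minus strand): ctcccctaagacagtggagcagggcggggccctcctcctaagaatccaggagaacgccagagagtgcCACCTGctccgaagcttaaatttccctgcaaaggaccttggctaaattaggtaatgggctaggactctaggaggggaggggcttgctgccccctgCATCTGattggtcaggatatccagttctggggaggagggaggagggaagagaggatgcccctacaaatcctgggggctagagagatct
Tnnt1 (chr7:4515976-4516225, minus strand): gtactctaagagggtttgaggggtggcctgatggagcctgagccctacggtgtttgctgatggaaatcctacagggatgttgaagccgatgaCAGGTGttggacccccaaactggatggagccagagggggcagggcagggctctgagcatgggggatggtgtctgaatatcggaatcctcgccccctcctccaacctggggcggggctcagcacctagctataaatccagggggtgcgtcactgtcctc
Tnnc1 (chr14:31208062-31208311, plus strand): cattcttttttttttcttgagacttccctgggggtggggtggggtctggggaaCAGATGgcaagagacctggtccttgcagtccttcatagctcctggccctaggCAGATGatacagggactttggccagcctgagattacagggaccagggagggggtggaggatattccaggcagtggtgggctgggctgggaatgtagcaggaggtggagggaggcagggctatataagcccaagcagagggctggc

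The Acta1 window held 2 E-boxes, 1 CArG box and 1 MCAT element (CATTCC on either strand, the motif of TEAD factors). Tnnc2 held 2 E-boxes, Atp2a1 and Tnnt1 1 each, and Tnnc1 2 E-boxes and 1 MCAT element. RefSeq windows were at hand for 30 of the 38 muscle genes, some with more than 1 start. An E-box was in 86.8% of their windows and in 66.2% of all 32851 promoter windows. At least 2 E-boxes were in 52.6% against 31.8% and MCAT in 26.3% against 12.6%. A CArG box was in 15.8% (6 of 38 windows) against 1.47% and a MEF2 motif in 7.89% (3 of 38) against 2.92%. The CArG count includes 2 overlapping windows of Ldb3 that hold the same site, and the E-box counts likewise include overlapping windows of Tnni1, Mb and Myh7 that share sites. The motifs were searched on both strands and may overlap. These are matches of letters and describe no binding.

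Levels on the 9 arrays are log2 normalised signals, on which an undetected probe reads about 4.3 to 5. Levels of different probes are not compared with each other.

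Acta1, the actin of the skeletal muscle thin filament, was detected on all 9 arrays. Its log2 signals were 9.78, 6.09 and 12 in WT/IgG replicates 1 to 3, 5.5, 9.09 and 11.86 in TK/IgG, and 9.1, 6.05 and 12.59 in TK/anti-Ang2. The brightest and the dimmest tumour thus differed 136-fold. Replicate 3 was the brightest array in each group, and the ranges of the 3 groups overlapped almost entirely.

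Atp2a1, the calcium pump SERCA1 of fast fibres, had the widest spread of the members. Its log2 signal was 9.47, 5.33 and 11.27 in WT/IgG, 4.64, 8.11 and 10.81 in TK/IgG and 8.2, 5.46 and 12.52 in TK/anti-Ang2, a range of 7.88 whose low end on TK/IgG replicate 1 was not detected. The calcium-binding subunit of fast troponin, Tnnc2, read 8.09, 4.54 and 9.51, then 4.38, 6.8 and 9.47, then 6.95, 4.82 and 10.97, and was detected on 6 arrays. Both genes had the same bright array in each group as Acta1, and WT/IgG replicate 1 stood between the bright and the dim arrays.

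The tropomyosin-binding troponin Tnnt3 of fast fibres spanned 5.72 to 10.15, with WT/IgG at 7.93, 7.31 and 9.2, TK/IgG at 5.78, 7.48 and 8.84 and TK/anti-Ang2 at 7.18, 5.72 and 10.15. The fast regulatory light chain Mylpf read 7.84, 5.29 and 9.21 in WT/IgG, 4.74, 6.93 and 9.89 in TK/IgG and 7.21, 5.05 and 9.97 in TK/anti-Ang2. The essential light chain Myl1, detected throughout, read 9.24, 6.04 and 10.7, then 6.29, 8.52 and 11.43, then 9.24, 7.84 and 11.56, a 45.8-fold range. In all 3 genes replicate 3 was again the brightest of its group.

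Fast myosin heavy chains, the motor proteins, were dim. Myh1 (the IIx chain) was detected on the 3 replicate 3 arrays alone, at 7.18 in WT/IgG, 5.73 in TK/IgG and 5.49 in TK/anti-Ang2, against 4.47 to 4.96 elsewhere. Myh4 (the IIb chain) was detected on 2 arrays, read 6.69 on WT/IgG replicate 3 and 6.23 on TK/IgG replicate 3 and at most 4.88 on the others, and did not pass the filter. These chains were highest in WT/IgG replicate 3, whereas Acta1, Atp2a1 and Tnnc2 were highest in TK/anti-Ang2 replicate 3.

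Of the fast troponin inhibitor subunit Tnni2, the log2 signal was 10.3, 10.39 and 11.65 in WT/IgG, 10.18, 10.46 and 11.01 in TK/IgG and 9.92, 9.59 and 11.97 in TK/anti-Ang2. It was detected on every array, with a 5.21-fold range, and the same array led each group. The other fast genes tested were Actn3 and Myoz1 of the Z-disc and the myosin-binding protein Mybpc2, with ranges of 3.52, 1.13 and 5.72. Casq1, the calcium store protein of the sarcoplasmic reticulum, was not detected on any of the 9 arrays.

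The 3 slow fibre genes tested had the same bright arrays as the fast genes. Tnnt1, slow troponin T, was detected on all 9 arrays at 7.02, 6.08 and 8.46 in WT/IgG, 5.12, 5.26 and 7.55 in TK/IgG and 6.63, 5.89 and 9.48 in TK/anti-Ang2, a 20.6-fold range. Tnnc1, the troponin C that slow fibres share with heart, read 6.61, 7.11 and 7.94, then 6.97, 6.82 and 7.55, then 6.98, 6.53 and 8.43, a 3.75-fold range. Replicate 3 led each group for both.

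Myl2, the slow and cardiac regulatory light chain, was detected on 4 arrays, at 5.41 and 6.77 on WT/IgG replicates 1 and 3, 6.2 on TK/IgG replicate 3 and 6.86 on TK/anti-Ang2 replicate 3, with 4.55 to 4.67 on the other arrays. The defining slow heavy chain Myh7, with 3 probes, and the slow inhibitor subunit Tnni1 were detected on none of the 9 arrays, and Myl3 on 2. So 3 of the 6 slow genes passed the filter, beside 10 of the 12 fast genes annotated (13 are listed, and Myh2 has no probe). Taken as the mean deviation from each gene's own mean, the fast list ran from -1.79 on TK/IgG replicate 1 to 2.34 on TK/anti-Ang2 replicate 3, and the slow list from -0.89 to 1.78. Fast minus slow was 0.43, 0.86 and 0.56 on the replicate 3 arrays and -0.99, -0.9 and -0.81 on the dimmest arrays, WT/IgG replicate 2, TK/IgG replicate 1 and TK/anti-Ang2 replicate 2. It was 0.38 on WT/IgG replicate 1, 0.51 on TK/IgG replicate 2 and -0.03 on TK/anti-Ang2 replicate 1. So it was lowest on the dimmest arrays and positive on the replicate 3 arrays, without following the muscle signal on every array. Fast minus slow was higher on TK/IgG replicate 2, where all members averaged -0.64, than on WT/IgG replicate 3, where they averaged 1.52. The slow list also had the smaller range, 2.68 against 4.13 for the fast list. What this adds to the difference was not tested.

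Of the 9 genes tested for structures that both fibre types share, 7 had their 3 highest values on the replicate 3 arrays. Desmin (Des), the intermediate filament around the Z-disc that vascular mural cells also express, read 8.24, 5.84 and 9.85 in WT/IgG, 6.52, 7.1 and 9.44 in TK/IgG and 7.91, 7 and 11.25 in TK/anti-Ang2. Its range was 5.4 on the log2 scale. In the smooth muscle list (7 genes) the widest range of a single gene was 1.53, for Actg2, and in the pericyte list (8 genes) 1.74, for Anpep; on the array highest for Des the means of these lists were 0.01 and -0.2. The part of mural cells in the Des signal was not tested.

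Actn2, the actinin that cross-links actin at the Z-disc, read 6.68, 5.4 and 8.24 in WT/IgG, 5.2, 5.03 and 6.98 in TK/IgG and 5.64, 5.45 and 8.17 in TK/anti-Ang2. The giant spring protein titin (Ttn) read 5.44, 5.12 and 8.29, then 4.92, 4.63 and 6.54, then 4.73, 4.57 and 9.09, on its brightest probe. Pdlim3, an actinin-binding protein, read 7.48, 5.19 and 8.55, then 4.92, 6.23 and 8.47, then 7.38, 5.92 and 10.19. On these probes replicate 3 led every group too. Titin depended on the probe: of its 12 probes 4 passed the filter, and 2 of the 4 lacked the pattern, with ranges of 0.56 and 0.8 and their highest values on TK/IgG replicate 2 and TK/anti-Ang2 replicate 1. In the same class, Tcap and Csrp3, further Z-disc genes, had ranges of 4.62 and 3.19. Fhl1 read 8.11, 6.6 and 8.76 in WT/IgG, 6.53, 7.2 and 8.42 in TK/IgG and 7.45, 8.62 and 9.42 in TK/anti-Ang2.

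Tpm2, a tropomyosin that smooth muscle also makes, likewise depended on the probe. Its brightest probe read 7.31 to 8.72 with TK/anti-Ang2 replicate 2 highest, while a second probe read 4.58 to 9.83 with TK/anti-Ang2 replicate 3 highest. The second probe thus had the pattern of the other muscle genes and the first did not. Neb and Ldb3 were not detected on any of the 9 arrays.

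Of the energy genes, muscle creatine kinase (Ckm) was detected on 6 arrays, at 6.57, 4.41 and 8.33 in WT/IgG, 4.36, 5.97 and 8.44 in TK/IgG and 5.3, 4.47 and 8.73 in TK/anti-Ang2. Myoglobin (Mb), the oxygen store of oxidative fibres, spanned 5.34 to 9.16. The muscle enolase Eno3 did not share the pattern: it was bright on all 9 arrays and read between 9.53, on WT/IgG replicate 3, and 10.63, on TK/anti-Ang2 replicate 1. Ckmt2 was not detected and Pygm on 1 array.

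Sarcolipin (Sln), a small inhibitor of the calcium pump, was detected on 6 arrays and read 7.68, 4.49 and 8.58 in WT/IgG, 4.53, 5.28 and 8.83 in TK/IgG and 5.77, 4.44 and 9.19 in TK/anti-Ang2. The calcium release channel Ryr1 spanned 4.85 to 9.73, highest on TK/anti-Ang2 replicate 3. Trdn, which anchors the release complex, was detected on none.

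**Figure D1:**
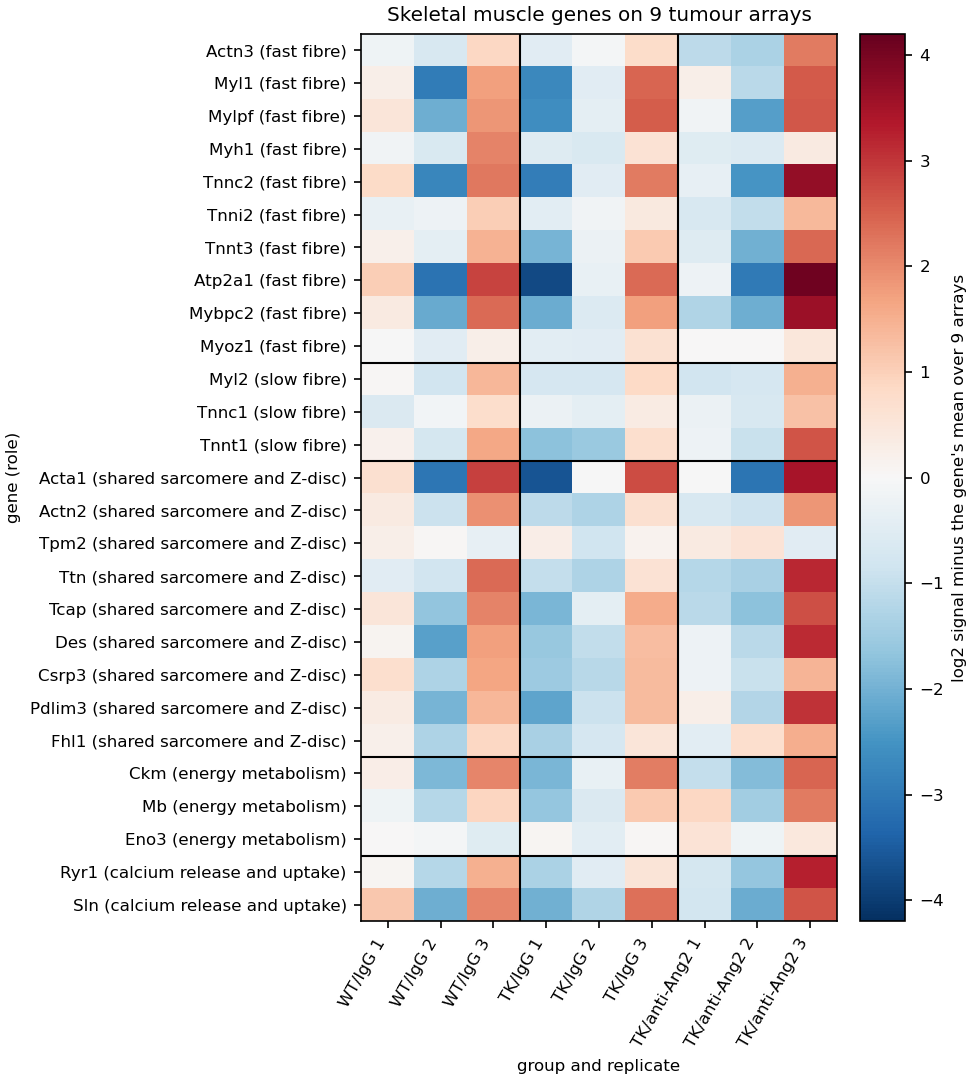
Log2 signal of each of the 27 muscle genes tested, minus the gene's mean over the 9 arrays (colour, from blue for low to red for high), with genes in rows by role and arrays in columns by group. Replicate 3 of each group is red for most genes, and Tpm2 and Eno3 are nearly colourless in all columns.

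**Figure D2:**
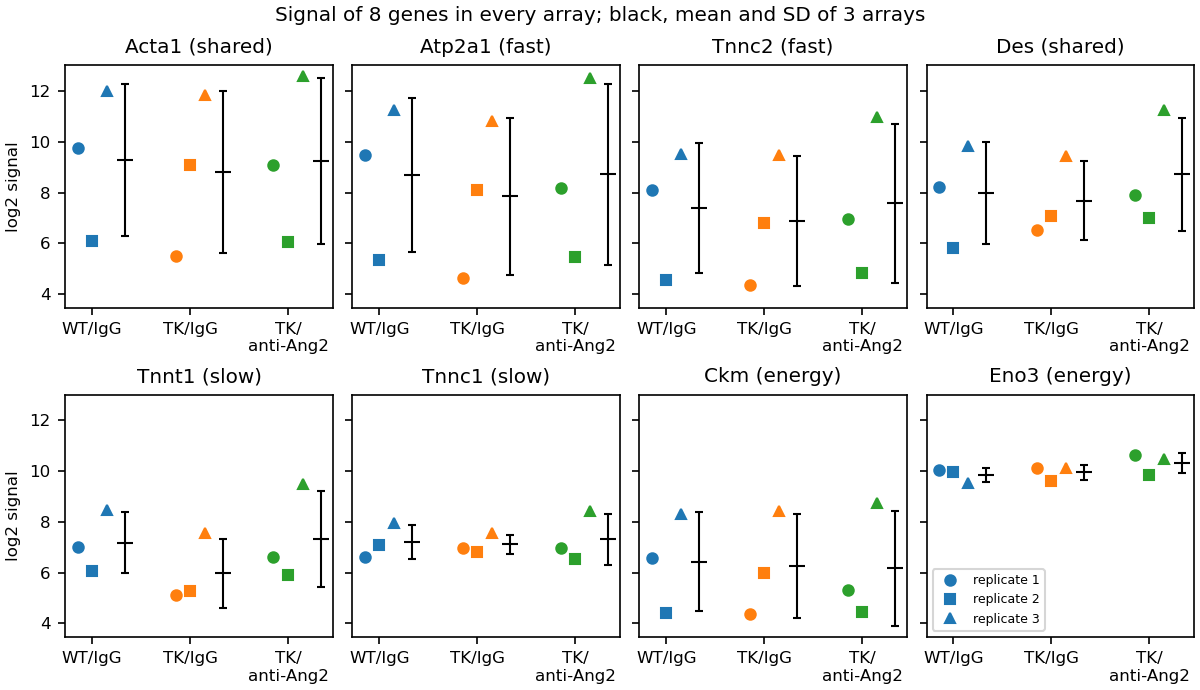
Log2 signal (vertical axis) of 8 muscle genes on every array, by group, with marker shape for the replicate and black bars for the mean and SD of 3 arrays. The groups overlap for all 8 genes, and triangles (replicate 3) lead each group except for Eno3.

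Over the 27 genes tested, the same 3 arrays, replicate 3 of each group, held the 3 highest values for 24 (88.9%), against 1.94% of the 11057 genes. The exceptions were Tpm2, Fhl1 (a LIM-domain protein that was higher on TK/anti-Ang2 replicate 2 than on TK/IgG replicate 3) and Eno3. The labels do not say whether a replicate number marks a day, a dissection or a batch. The 3 arrays were recognised from these values, and a gene could pass the filter through them alone, so the count is a description; 11 of the 27 genes were detected on all 9 arrays. The highest value lay on TK/anti-Ang2 replicate 3 for 21 of the 27 genes, against 8.22% of all genes. The lowest lay on TK/IgG replicate 1 for 11, for which no share over all genes is given. In numbers detected, the replicate 3 arrays showed 27 of 27 each, WT/IgG replicates 1 and 2 showed 26 and 18, TK/IgG replicates 1 and 2 showed 14 and 21, and TK/anti-Ang2 replicates 1 and 2 showed 24 and 17.

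The median range over the 9 arrays was 4.37 on the log2 scale for the 27 genes and 0.82 for all genes, and the median SD within groups was 1.67 against 0.26. Among the 50 genes with the widest range of all, 6 were muscle genes of the list, 6 were of the skin list, 3 of the adipocyte list, 2 of the mast cell list and 0 of the other adult muscle genes. The replicate 3 arrays had detected shares of 42.3, 43.2 and 40.9%, that of TK/IgG replicate 3 being the highest of the 9, and median correlations with the other arrays of 0.977, 0.97 and 0.975.

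Genes around the listed ones gave a matching and a contrasting picture. Of 42 other adult muscle genes 25 were tested, and 16 of the 25 had their 3 highest values on the same 3 arrays. Their mean deviation was 0.78, 0.5 and 1.51 on the replicate 3 arrays and -0.73 to -0.08 on the rest. Of 10 genes of myogenic regulation and satellite cells 5 were tested. Of these, 2 had their 3 highest values on the same 3 arrays. Myf6, a factor of mature fibres, had the widest range (4.44). Myog, Mef2c, Cdh15 and Chrna1 were also tested, while Myod1, Myf5 and Pax7 did not pass the filter. None of the developmental genes Myh3, Myh8 and Actc1 passed it. Of 8 cardiac genes Myl4 and Nppb passed, Myl4 with a range of 3.72, while Myh6, Tnni3 and Nppa did not pass. The mean of Myl4 and Nppb was highest on TK/anti-Ang2 replicate 3 (1.31) and TK/IgG replicate 3 (0.87). On WT/IgG replicate 3 it was -0.04, below TK/anti-Ang2 replicates 1 and 2 (0.45 and 0.47). Of the 2 genes, 1 had its 3 highest values on the replicate 3 arrays.

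Lists of other tissues near the fat pad peaked elsewhere. The adipocyte, skin and mast cell lists were highest on TK/anti-Ang2 replicate 2, at 2.89, 4.56 and 2.61, where the muscle genes were at -1.27. On the replicate 3 arrays the skin list was at 0.58 in WT/IgG, 1.8 in TK/IgG and -1.21 in TK/anti-Ang2, and the adipocyte list at -0.41, -0.48 and -0.61. No gene of the smooth muscle, adipocyte, skin or mast cell lists, and 1 of 8 pericyte genes, had its 3 highest values on the replicate 3 arrays.

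**Figure D3:**
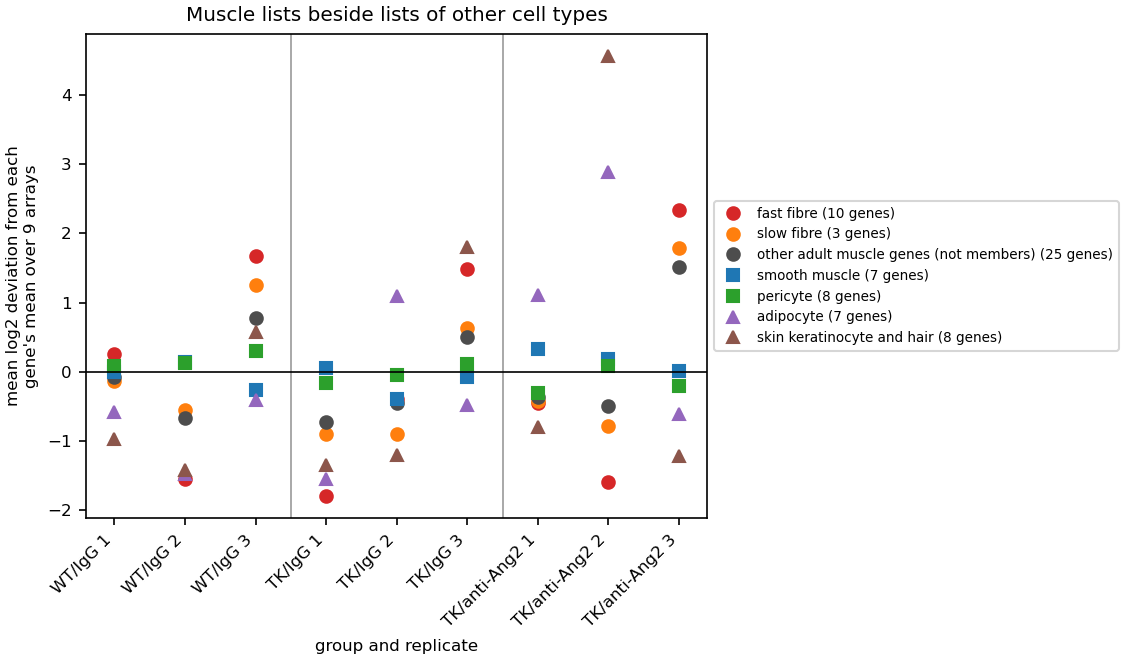
Mean log2 deviation of each gene list from the genes' own means (vertical axis) on the 9 arrays, for muscle lists (circles), mural cell lists (squares) and adipocyte and skin lists (triangles). The muscle lists lie above 0 together on replicate 3 of each group, up to 2.34, whereas the adipocyte and skin lists are highest on TK/anti-Ang2 replicate 2.

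Whether pericyte targeting changed the muscle genes was addressed by TK/IgG against WT/IgG. No muscle gene of the 27 tested passed limma with Benjamini-Hochberg adjustment at 0.05, as for 0% of all genes, and the smallest adjusted p among them was 0.999. None reached an unadjusted p below 0.05, against 2.94% of all genes, and in none were the arrays of the groups apart, against 3.19% of all genes higher and 5.07% lower in TK/IgG. Signals were lower in TK/IgG for 24 genes and higher for 3, while 46.4% of all genes were higher, with a median difference of -0.48 (fast -0.38, slow -0.41) beside -0.02 over all genes. The difference was smaller than its own standard error in 25 of 27 genes.

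The slow troponin gene Tnnt1 had the largest difference, 5.98 ± 1.36 in TK/IgG against 7.19 ± 1.2 in WT/IgG (SD, n = 3 each), or -1.21 with a standard error of 1.02, and an exact two-sided permutation p of 0.3, where 0.1 is the smallest that 3 against 3 allows. Actn2 followed at -1.04 (SE 0.91) and Ttn at -0.92 (SE 1.26). One array decided the sign of the median: it was 0.2 without WT/IgG replicate 3 and -1.38 without TK/IgG replicate 3.

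For blockade of angiopoietin-2 in PDGFRb-TK hosts, TK/anti-Ang2 was set against TK/IgG, whose arrays also serve the comparison above. Of the 27 genes 0 passed the adjusted limma test, as 0% of all genes, with 0.992 the smallest adjusted p. At an unadjusted p below 0.05 there were 0, against 3.34% of all genes, and 0 had groups that did not overlap, against 2.61% higher and 4.33% lower. The signal was higher in TK/anti-Ang2 for 23 genes and lower for 4, while 46.9% of all genes were higher, with a median of 0.4 (fast 0.3, slow 0.2; all genes -0.02). Tnnt1 differed by 1.36 (SE 1.02), Pdlim3 by 1.29 (SE 1.27) and Fhl1 by 1.11 (SE 0.69). Without TK/anti-Ang2 replicate 3 the median was -0.64, and without TK/IgG replicate 3 it was 1.38.

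TK/anti-Ang2 against WT/IgG joined both changes. Again 0 of the 27 genes passed the adjusted limma test, as 0% of all genes, none reached an unadjusted p below 0.05 (7.39% of all genes did), and none had separate groups, against 4.83% of genes higher and 7.74% lower. Of the 27 genes 13 were higher and 14 lower, while 44.6% of all genes were higher, with a median of -0.03 (fast -0.06, slow 0.09; all genes -0.04). Myl1 differed by 0.88 (SE 1.54), Pdlim3 by 0.75 (SE 1.27) and Des by 0.74 (SE 1.31). The smallest p belonged to the flat gene Eno3, with 10.33 ± 0.41 against 9.86 ± 0.29 (SD, n = 3 each), a difference of 0.47 and a limma adjusted p of 0.677. The median was -1.12 without TK/anti-Ang2 replicate 3 and 0.73 without WT/IgG replicate 3. Standard errors of the 27 genes ran from 0.25 to 2.17 in all 3 comparisons, which share 1 estimate of the spread.

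The early and late pairs have 1 array per group, so no test was made and a difference compares tumours, not conditions. Values are log2 normalised signals on this platform, on which undetected probes read about 6. Of the 32 muscle genes that passed, 9 were detected in the early control, 32 in the early ablation tumour, 25 in the late control and 17 in the late ablation tumour. A gene could pass through 1 bright array alone, so counts over the 32 are descriptions. Casq1, Myh7, Tnni1 and Trdn were detected on none of the 4 arrays.

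Acta1 read 6.15 in the early control, where it was not detected, and 12.38 in the early ablation tumour, at least 63-fold higher. In the late pair it read 10.76 in the control and 8.74 in the ablation tumour, a log2 ratio of -2.01. So the tumour with ablation was the brighter of the early pair and the dimmer of the late pair.

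Myl1 read 6.26 and 11.66 in the early pair (at least 38.3-fold higher with ablation) and 9.66 and 8.17 in the late pair (-1.48). Atp2a1 read 6.24 and 11.49 (at least 34.1-fold) and then 9.85 and 8.16 (-1.69). Tnnc2 read 5.95 and 10.78 (at least 20.8-fold) and then 8.91 and 7.2 (-1.71). These fast genes were undetected in the early control and detected on the other 3 arrays.

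Csrp3, the muscle LIM protein, read 6.17 in the early control and 9.51 in the early ablation tumour (at least 8.62-fold higher), and 7.34 and 6.39 in the late pair. Des, detected on all 4 arrays, read 6.79, 10.02, 7.94 and 7.29 in the order early control, early ablation, late control, late ablation. Fhl1 read 6.87, 9.63, 8.35 and 6.81 in the same order, one of the 5 largest late ratios at -1.54. Ckm read 5.75, 8.5, 7.05 and 6.19 and Sln 6.08, 8.68, 7.41 and 6.37, neither detected in the early control or the late ablation tumour. All 5 genes were highest in the early ablation tumour and second in the late control.

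Among the remaining fast genes, Mylpf read 6.34, 9.51, 7.43 and 6.65 in that order and Tnnt3 7.31, 9.17, 8.23 and 7.31. The heavy chains Myh1 and Myh4 were detected in the early ablation tumour alone, at 7.38 and 6.52. Tnni2 differed from the other fast genes in the late pair, with 9.18, 11, 9.29 and 9.57 and thus a late log2 ratio of 0.28.

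Of the 6 slow genes 4 passed here, with early ratios from 0.98 (Myl3) to 2.58 (Tnnt1), inside the 0.48 (Myoz1) to 5.41 (Myl1) of the 11 fast genes. In the early control 2 of these 4 slow and 2 of these 11 fast genes were detected. Myl3, Myoz1 and Myl1 were not, so these ends of the ranges are ratios against undetected probes. Tnnt1 read 6.8, 9.39, 7.88 and 6.87, with ratios of 2.58 early and -1.01 late. Tnnc1 read 7.48, 8.86, 7.4 and 7.19, with ratios of 1.38 and -0.21. Myl2 read 5.9, 7.86, 6.66 and 6.23, undetected in the early control and the late ablation tumour. All were highest in the early ablation tumour, as the fast genes were.

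In the early pair 31 of the 32 genes were higher with ablation, where 48.2% of all 9714 genes were, and 24 (75%) were at least 2-fold higher, against 0.947% of all genes. With undetected probes set at their bounds, 23 were at least 2-fold higher. The median log2 ratio was 2.41 (fast 2.61, slow 1.67), or 2.23 with bounds over 31 genes, since none can be given for Pygm (fast 2.56, slow 1.42), beside -0.01 over all genes. Eno3 alone was lower, at 10.02 and 9.73. Of the 20 highest ratios among all genes 15 were listed muscle genes.

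In the late pair 28 of 32 were lower with ablation, where 49.6% of all genes were, and 9 (28.1%) were at least 2-fold lower, against 0.669% of all genes. With bounds this was 8 of the 25 genes detected on at least 1 array of the pair. The other 7 of the 32 were detected on neither array, so the direction of their ratios ranks undetected values. The median was -0.64 (fast -0.88, slow -0.32), or -0.77 with bounds (fast -1.07, slow -0.21), beside 0 over all genes. Of the 20 lowest ratios among all genes 3 were listed muscle genes. The order early ablation, late control, late ablation, early control held for 22 of the 32 genes (68.8%), against 2.45% of all genes. But only 9 of the 32 were detected in the early control and 17 in the late ablation tumour. For many genes the last step therefore ranks 2 undetected values, as for Myh1 with 5.99 in late ablation and 5.97 in early control.

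Of the other adult muscle genes, 21 passed on this platform, with 18 higher in the early pair (median 0.73) and 14 lower in the late pair (median -0.05). Medians of the smooth muscle list were -0.02 early and -0.29 late, and those of the pericyte list 0.03 and -0.28, with Pdgfrb at -0.78 in the late pair. All 5 smooth muscle genes were lower in the late pair, 2 of them at least 2-fold, with Actg2 at -1.97, though only 3 of the 5 were detected in the late ablation tumour. The mast cell list had medians of 0.66 early and 1.31 late, with all 5 genes higher in both pairs and 3 at least 2-fold higher in the late one. Only 1 of these 5 was detected in the late control, so most of their late ratios were not measured on both arrays. The skin list had medians of 0.2 and 0.14 and the adipocyte list 0.02 and -0.04. Their part in the muscle gene differences was not tested.

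**Figure D4:**
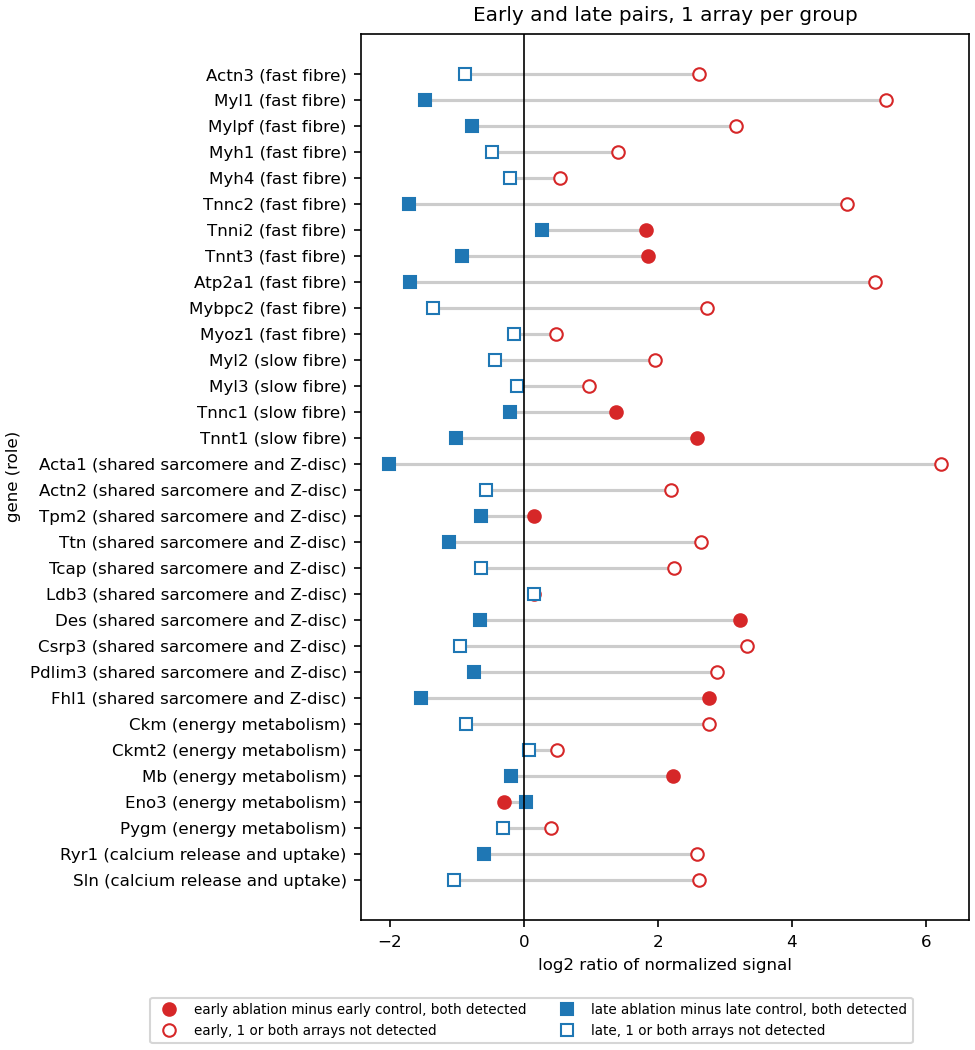
Log2 ratio of ablation over control (horizontal axis) for the 32 muscle genes kept, in the early pair (red circles) and the late pair (blue squares), 1 array per group. Open markers have 1 or both arrays not detected, so their plotted ratios were not measured on both sides. Early ratios reach 6.23 for Acta1 and late ratios reach -2.01 for the same gene.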

How the data were processed

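The authors deposited, per the file headers, a probe signal and a detection p-value for each array. The signal is an intensity on a linear scale, neither normalised nor background-subtracted, and the submitters' processing notes name GenomeStudio. On every array the authors' processed intensity is a linear function of that signal (largest residual 0.109). In the larger of the deposited tables, the columns of 3 arrays (6 columns) matched no sample and were not used.

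On the 9 arrays signals were corrected and quantile-normalised with neqc (limma 3.58.1, R 4.3.3, offset 16). The filter asked for a detection p under 0.05 on 3 or more arrays, and the brightest probe stood for its gene. On the 4 arrays normexp (offset 50) and quantile normalisation were used, because the late control's detection column repeats its signal. On that array the brightest 42.6% of probes counted as detected, and detection on 1 array sufficed. Of 45281 and 25697 probes, 34885 and 23978 had 1 gene symbol in the platform annotation and 34807 and 23962 matched RefSeq names; 18 probes had several symbols and 10378 and 1719 none.

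Groups came from titles and were compared with limma over all 9 arrays, Benjamini-Hochberg adjustment at 0.05 over all genes, and exact two-sided permutation for single genes. The fit was tested on simulated data. A fold against undetected probes is a bound, the bright signal over the higher of the dim probe's own signal and the array's dimmest detected one. Full values are given for 15 members and for those with the largest differences (3 per comparison, 5 per pair). Alternatives varied background, normalisation, value source, filter, probes, samples in the fit, variance moderation, replicate block and arrays left out. The members, lists and naming rule were chosen with earlier results of these data known.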

Additional observations from a re-analysis of the deposited data

Results flagged for a closer look

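The early and the late pair differed in direction: the median log2 ratio of ablation over control for the muscle genes kept was 2.41 in the early pair and -0.64 in the late pair. The difference between the pairs was not tested, since each group has 1 array.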

How the results depend on the processing

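No muscle gene passed the adjusted limma test in any comparison under any alternative run, arrays left out included. Over all genes the count was 0 throughout, except that with detection required on all 9 arrays 1 of 8877 genes passed in TK/anti-Ang2 against WT/IgG, Slc24a3, which is no muscle gene of the list (difference 1.52, adjusted p 0.0394); it was named after its value was seen. Leaving out 1 array in turn moved the medians of TK/IgG minus WT/IgG over -1.38 to 0.2 (fast -1.52 to 0.5, slow -0.93 to 0.18), of TK/anti-Ang2 minus TK/IgG over -0.64 to 1.38 (fast -1 to 1.41, slow -0.36 to 0.71) and of TK/anti-Ang2 minus WT/IgG over -1.12 to 0.73 (fast -1.31 to 0.85, slow -0.93 to 0.49). The other alternatives put these medians, over the muscle genes tested, at -0.5 to -0.23, 0.3 to 0.45 and -0.08 to 0.18. The replicate numbers did not meet the criterion for pairing (same-number correlations over all genes from -0.162 to 0.391). The correlations given for pairing are not those of the signals themselves, whose medians per array were 0.931 to 0.977. Over the muscle genes replicates 3 correlated at 0.75 to 0.855, but same-number correlations of replicates 1 and 2 ran from -0.66 to 0.811. Arrays of different number reached 0.923 over the muscle genes (TK/IgG replicate 1 with WT/IgG replicate 2). With the replicate block 0 genes passed, with medians of -0.48, 0.4 and -0.03, and the standard error of Tnnt1 was 0.32 in place of 1.02 (TK/IgG minus WT/IgG adjusted p 0.999). In the pairs the authors' processed values gave early medians of 3.75 (fast 4.06, slow 2.8) and late medians of -1.31 (fast -1.37, slow -0.83). Without the detection filter the early fast and slow medians were 2.23 and 1.18, and with the mean of all kept probes the early fast median was 1.85. The causes of these shifts were not tested. A slide block was not run, since the files name no slide. Signal near background limits the dim genes, such as the myosin heavy chains, and single arrays limit the pairs.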
